A study of Solanum lycopersicum with 9 samples.

Results

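Phenylalanine ammonia-lyase (PAL) is the enzyme that removes ammonia from phenylalanine to give cinnamic acid, the entry step of the phenylpropanoid pathway. Lignin, flavonoids and chlorogenic acid, an abundant phenolic of tomato leaves, are made downstream of it. PAL is encoded by a gene family in plants, and its transcripts are known to respond to light, wounding and pathogens. The 7 genes described here were chosen by identifier, as listed members of the tomato PAL family. All 7 were among the 23195 genes of the count table, and all 7 were among the 20480 genes that passed a filter on low counts and were tested. Going by the numbers in their identifiers, 4 lie side by side on chromosome 9 (Solyc09g007890.1, Solyc09g007900.3, Solyc09g007910.3 and Solyc09g007920.3), with no other identifier of the table between them. The other 3 are Solyc05g056170.3 on chromosome 5, Solyc03g042560.2 on chromosome 3 and Solyc10g086180.2 on chromosome 10.

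The table names no gene products, and 0 of its 23195 identifiers matched the RefSeq gene table of assembly SLM_r2.1, so the family label could not be checked against an annotation. That RefSeq table lists 3 genes under PAL symbols, PAL2 on chromosome 5 and PAL5 and PAL3 on chromosome 9, with 0 protein-coding genes between PAL5 and PAL3. Which of the 7 identifiers these symbols belong to was not resolved, and the members are therefore called by identifier. Other PAL genes may have been counted beyond these 7. Shares, sums and PAL reads given below cover the listed members only.

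Leaf messenger RNA was sequenced from wild-type tomato (Solanum lycopersicum) (cultivar M82), with 3 biological replicates in each of 3 groups. In the defoliation group the knife removed every leaf other than the one later measured. In the shading group foil was wrapped round every leaf other than the youngest fully expanded one, at position 4 or 5 from the top. The control group was untreated, and its RNA came from parallel leaves. Treatment started 1 week after the plants first flowered, on plants grown in 1 greenhouse regime. The labels of both treated groups carry the number 48 with no unit, and those of the controls carry none, so whatever it marks cannot be told apart from treatment. The labels name leaf mesophyll, while the protocol describes whole leaves. Mesophyll markers could not be looked up without gene names. In such bulk samples, fewer cells of a type and less RNA per cell cannot be told apart.

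Total counts per library ran between 17617138 and 31012772. The shallowest library, shading replicate 3, held 1657 genes at 0, more than any other library. Values below are CPM (counts scaled to the TMM-corrected size of the library), and a count of 3 was worth 0.0931 to 0.194 CPM depending on the library. CPM is not corrected for transcript length, which the table does not give, so CPM values of different members describe shares of reads and not levels of transcripts.

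Reads of the 7 listed members were dominated by the chromosome 9 genes. Together these 4 members took between 84.5% and 89.6% of the reads of all 7 members in every library. Solyc09g007920.3 alone held 62.6% ± 4.73 of them after defoliation, 63.1% ± 3.14 under shading and 59.4% ± 3.92 in control leaves (SD, n = 3). Solyc09g007910.3 followed with 16.8% ± 2.83, 17.7% ± 1.30 and 17.1% ± 1.20 in the same order of groups. The first place of Solyc09g007920.3 held in all 9 libraries. A pair of members hardly contributed, since Solyc09g007890.1 had 3 to 18 counts per library and Solyc03g042560.2 had 0 to 37 counts in every library except control replicate 3.

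The summed signal was lower under shading than in control leaves in every library, although shading replicate 3 came close to the lowest control. All 7 members together stood at 1373, 1062 and 1007 CPM in the 3 defoliation libraries, 734, 755 and 1155 CPM in the 3 shading libraries, and 1226, 1569 and 2392 CPM in the 3 control libraries. Group means were 1147 ± 197 CPM after defoliation, 881 ± 237 CPM under shading and 1729 ± 599 CPM in control leaves (SD, n = 3). The control mean was 1391 CPM without control replicate 3. The defoliation libraries overlapped both other groups. No test was made on the sum, which is given because reads of similar copies can be divided unevenly between them in the counting.

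**Figure D1:**
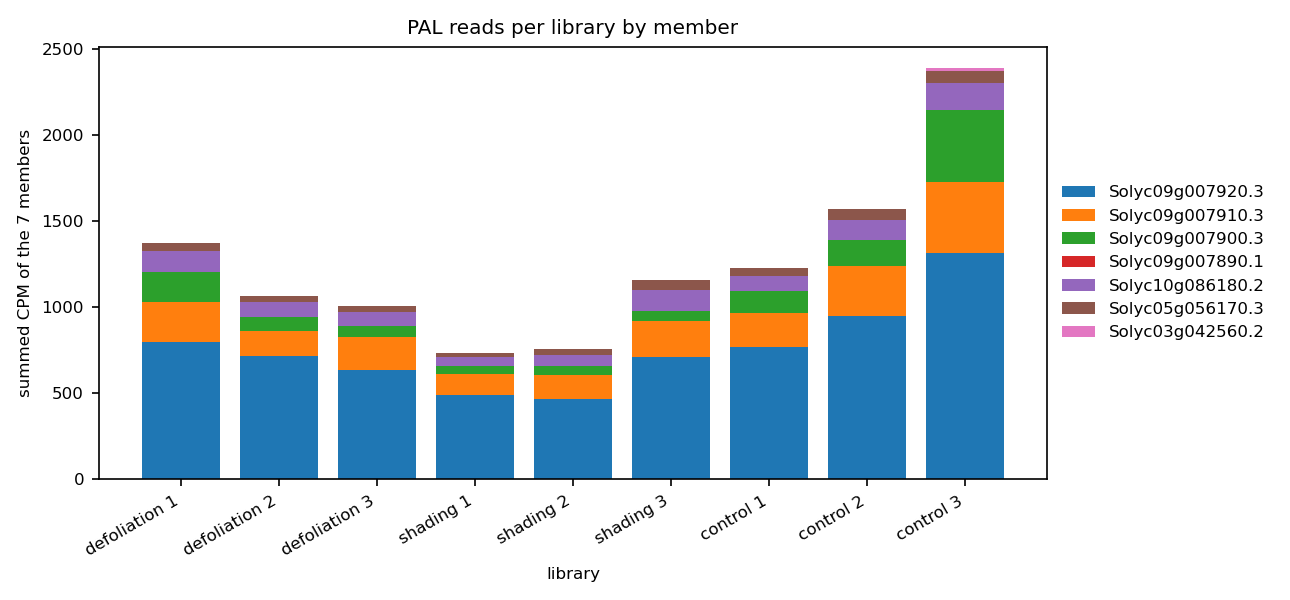
Summed CPM of the 7 PAL members (vertical axis) in each of the 9 libraries (horizontal axis, named by group and replicate), with 1 colour per member. Solyc09g007920.3 (blue) is the tallest segment in every bar, control replicate 3 is the tallest bar at 2392 CPM, and shading replicates 1 and 2 are the lowest at 734 and 755 CPM.

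Control replicate 3 stood apart for these genes and bears on every comparison with control leaves. It was the highest of the 9 libraries for 6 of the 7 members, a place it took for 19.3% of all genes tested. Its excess over the next highest library was uneven across the family. For Solyc05g056170.3, Solyc10g086180.2, Solyc09g007920.3 and Solyc09g007910.3 it was 1.14-, 1.27-, 1.39- and 1.43-fold, for Solyc09g007900.3 it was 2.37-fold, and for Solyc03g042560.2 it was 18.3-fold. Only 18 of the tested genes (0.0879%) were more than 10-fold higher in that library than in any other. For each member, the log2 fold change against control is therefore followed by its value without that library.

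Setting shading against control asks how the exposed leaf differs when the other leaves are darkened but still attached. Transcripts of 3 of the 7 members, all from chromosome 9, fell under shading, and none rose. Over all genes tested, 14.2% were called lower and 16% higher in this comparison. Members had a median log2 fold change of -0.87, against -0.02 over all genes. Their median was -0.56 without control replicate 3, against -0.01 over all genes. A gene was called where edgeR's quasi-likelihood test gave an adjusted p below 0.05 (Benjamini-Hochberg, over all 20480 genes), and the same test underlies every adjusted p below.

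Solyc09g007900.3 showed the largest fall among the members called. It stood at 48.8, 54.4 and 54.9 CPM in the shading libraries and at 127, 152 and 418 CPM in the control libraries. The shading libraries lay close together and all below the lowest control. The mean was 52.7 ± 3.37 CPM under shading and 232 ± 161 CPM in control leaves (SD, n = 3), 4.41-fold lower under shading. Its log2 fold change was -2.14 ± 0.53 (SE; edgeR adjusted p = 0.0172). Without control replicate 3 the log2 fold change was -1.40 ± 0.38 and the gene was still called (edgeR adjusted p = 0.0302). The call was lost without any 1 of the 3 shading libraries, with log2 fold changes of -2.09, -2.16 and -2.17 and edgeR adjusted p of 0.0686, 0.0552 and 0.0515.

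Solyc09g007920.3, the member with most reads, fell less steeply. It stood at 490, 463 and 707 CPM in the shading libraries and at 768, 948 and 1316 CPM in the control libraries. The groups did not overlap, but shading replicate 3 was nearer to the lowest control than to the other 2 shading libraries. Means were 553 ± 134 CPM under shading and 1011 ± 279 CPM in control leaves (SD, n = 3), with a log2 fold change of -0.87 ± 0.22 (SE; edgeR adjusted p = 0.0155). This call was lost without control replicate 3 (log2 fold change -0.63, edgeR adjusted p = 0.0562), without shading replicate 1 (-0.79, adjusted p = 0.0577) or without shading replicate 2 (-0.75, adjusted p = 0.0613).

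Solyc09g007910.3 was the least secure of the calls. Its values were 119, 138 and 213 CPM in the shading libraries and 196, 288 and 410 CPM in the control libraries. Shading replicate 3 lay above the lowest control, so the groups overlapped. The log2 fold change was -0.93 ± 0.30 (SE; edgeR adjusted p = 0.0439). Leaving out each of the 9 libraries in turn kept the call in 3 of the 9 fits, with adjusted p over all 9 from 0.0224 to 0.148. It was lost without control replicate 2 (log2 fold change -0.92) or 3 (-0.62), shading replicate 1 (-0.76) or 2 (-0.84), or defoliation replicate 1 (-0.92) or 3 (-0.92).

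The groups did not overlap for 2 of the 7 members, Solyc09g007900.3 and Solyc09g007920.3, with shading the lower. Over all genes, 23.2% had shading wholly below control.

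The members outside chromosome 9 did not pass, and the shallow library weighed on 2 of them. Solyc05g056170.3 stood at 22.5, 32.3 and 56.4 CPM in the shading libraries and at 45.7, 63.0 and 71.6 CPM in the control libraries. Its log2 fold change was -0.70 ± 0.32 (SE; edgeR adjusted p = 0.125), with a 95% interval from -1.41 to 0.01. Solyc10g086180.2 stood at 53.7, 65.9 and 123 CPM in the shading libraries and at 89.7, 117 and 155 CPM in the control libraries. In both genes shading replicate 3 was the highest shading library and lay within the control range, while shading replicates 1 and 2 lay below all controls. The log2 fold change of Solyc10g086180.2 was -0.58 ± 0.32 (SE; edgeR adjusted p = 0.192), with a 95% interval from -1.29 to 0.12. The estimates without control replicate 3 were -0.56 for Solyc05g056170.3 (edgeR adjusted p = 0.286) and -0.36 for Solyc10g086180.2 (edgeR adjusted p = 0.473).

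Without shading replicate 3 both were called, Solyc05g056170.3 at -1.13 ± 0.26 (edgeR adjusted p = 0.0145) and Solyc10g086180.2 at -1.01 ± 0.26 (adjusted p = 0.0219). In that fit 4 members were called lower, since Solyc09g007910.3 (-1.21) and Solyc09g007920.3 (-1.08) passed and Solyc09g007900.3 did not, while 10.9% of all genes were called lower. Without control replicate 3, Solyc09g007900.3 was the single member called, and 9.26% of all genes were called lower. Without shading replicate 1, edgeR called 0 members and 2 had an unadjusted p below 0.05, while 9.47% of all genes were called lower and 36.3% had such a p. Without shading replicate 2 it also called 0 and 3 had one, while 9.65% of all genes were called lower and 37% had one. DESeq2 and limma-voom were not run with libraries left out.

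**Figure D2:**
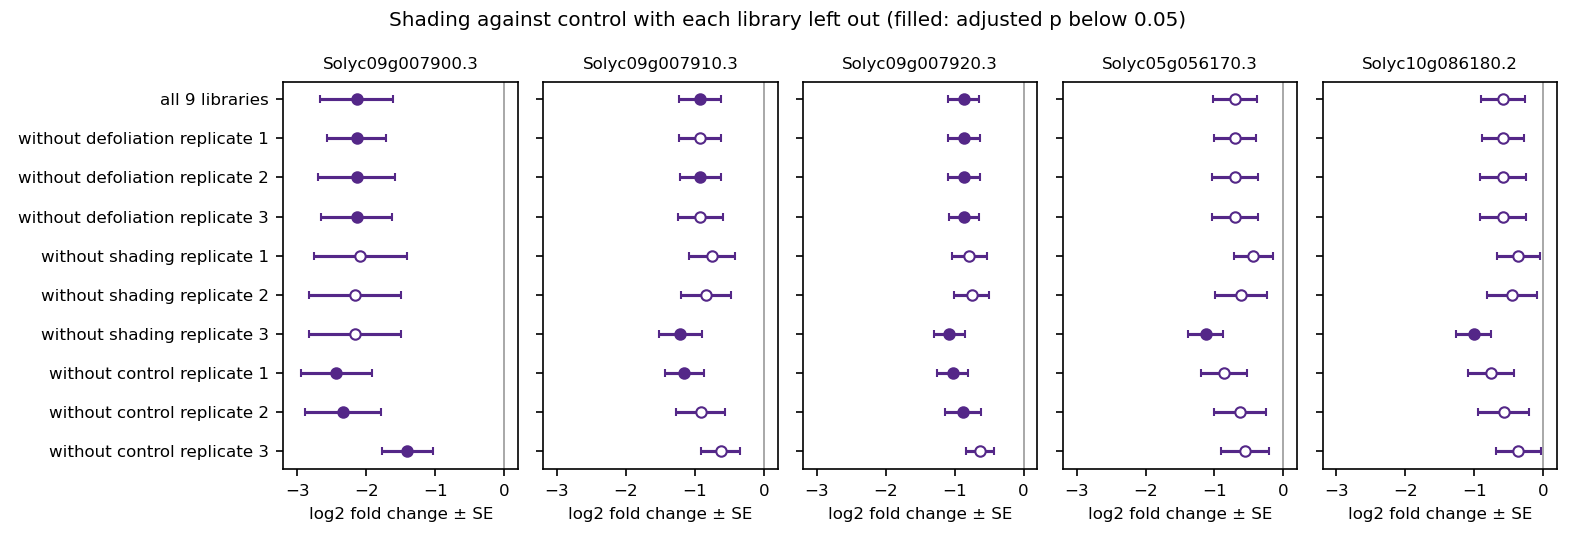
Log2 fold change of shading against control (horizontal axes, bars are SE) for 5 PAL members, with all 9 libraries and with each library left out (rows), filled where the adjusted p was below 0.05. Every estimate is negative, Solyc09g007900.3 moves to -1.40 without control replicate 3, and Solyc05g056170.3 and Solyc10g086180.2 are filled only without shading replicate 3.

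Setting defoliation against control asks the same of a leaf left alone on the plant. No PAL member was called, whereas 34.3% of all genes were. Of the 7 members, 1 had an unadjusted edgeR p below 0.05, against 44.9% of all genes. With DESeq2, which gave no p for Solyc03g042560.2, 4 members had an unadjusted p below 0.05, against 45.6% of genes with a p. With limma-voom 1 had one, against 45.5%. DESeq2 and limma-voom called 0 members as well, against 37.7% and 34.7% of genes with an adjusted p. All 7 fitted log2 fold changes were below 0, with a median of -0.63 against -0.02 over all genes, where 51.2% were below 0. Of the 7, 6 were below 0 without control replicate 3, with a median of -0.33 against 0.01 over all genes. The defoliation libraries lay wholly below control in 0 of the 7 members and in 25.5% of all genes. With 3 libraries in each group the intervals were wide and do not show that levels stayed alike.

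Solyc09g007920.3 stood at 794, 714 and 631 CPM in the defoliation libraries, against 768, 948 and 1316 CPM in the control libraries. Defoliation replicate 1 lay above the lowest control. The log2 fold change was -0.50 ± 0.22 (SE; edgeR adjusted p = 0.105), with a 95% interval from -0.996 to -0.01. It was -0.27 without control replicate 3 (edgeR adjusted p = 0.372). This was the member with an unadjusted edgeR p below 0.05.

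Solyc09g007900.3 varied most among the members with many reads. It stood at 177, 79.5 and 60.8 CPM in the defoliation libraries, against 127, 152 and 418 CPM in the control libraries. Defoliation replicate 1 exceeded 2 of the 3 controls. The log2 fold change was -1.14 ± 0.51 (SE; edgeR adjusted p = 0.12), and it was -1.72 and called without defoliation replicate 1 (edgeR adjusted p = 0.0341). Without control replicate 3 it was -0.40 (edgeR adjusted p = 0.463).

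For Solyc09g007910.3 the defoliation libraries held 234, 147 and 196 CPM and the control libraries 196, 288 and 410 CPM. Its log2 fold change was -0.63 ± 0.30 (SE; edgeR adjusted p = 0.135), and -0.33 without control replicate 3 (edgeR adjusted p = 0.425). Solyc05g056170.3 stood at 47.9, 33.7 and 33.4 CPM after defoliation, against 45.7, 63.0 and 71.6 CPM in control leaves. In both genes the highest defoliation library was replicate 1, and it lay above the lowest control. For Solyc09g007910.3 defoliation replicate 3 also lay just above the lowest control, at 196.3 against 195.6 CPM. The log2 fold change of Solyc05g056170.3 was -0.65 ± 0.32 (SE; edgeR adjusted p = 0.141), and -0.50 without control replicate 3 (edgeR adjusted p = 0.312). It was called without shading replicate 3 (-0.65, edgeR adjusted p = 0.0495), and also when the fit held only the defoliation and control libraries (-0.65, edgeR adjusted p = 0.0444). Solyc10g086180.2 stood at 121, 85.6 and 84.8 CPM after defoliation, against 89.7, 117 and 155 CPM in control leaves. Its libraries overlapped, and the log2 fold change was -0.32 ± 0.31 (SE; edgeR adjusted p = 0.47). It was -0.09 without control replicate 3 (edgeR adjusted p = 0.864).

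**Figure D3:**
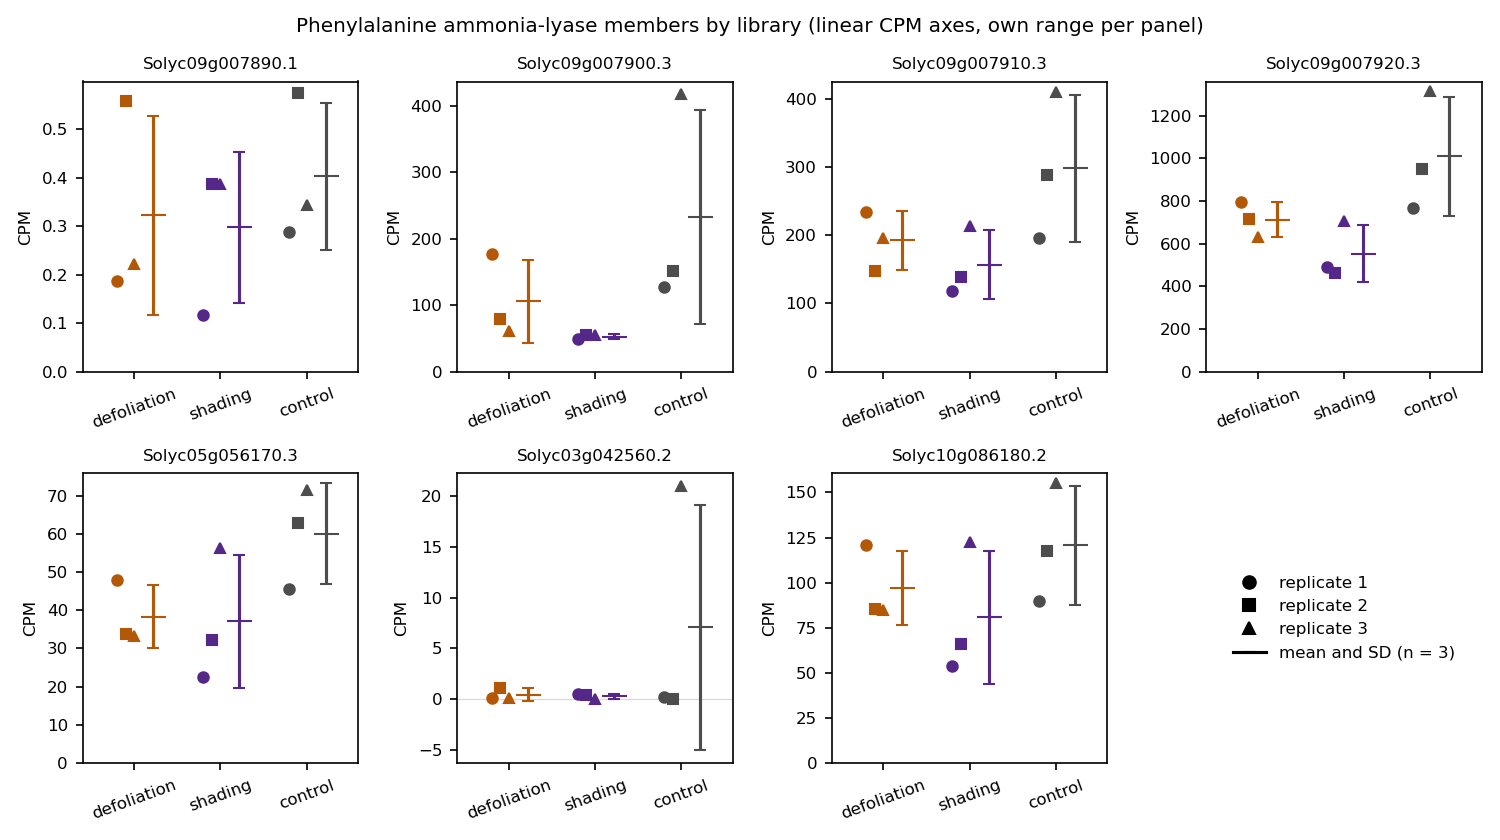
CPM of each PAL member (vertical axes, linear, with a range of their own in each panel) by group, with 1 point per library shaped by replicate number and the group mean ± SD (n = 3) beside the points. Control replicate 3 (triangle) is the highest point in 6 of 7 panels, and the 3 shading points of Solyc09g007900.3 lie between 48.8 and 54.9 CPM.

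The members with few reads were tested but could not be measured well. Solyc09g007890.1 had 5, 18 and 7 counts in the defoliation libraries, 3, 11 and 6 in the shading libraries and 8, 15 and 10 in the control libraries. At this depth no difference was detectable in it, and the 95% interval of its log2 fold change ran from -1.65 to 1.06 for defoliation against control and from -1.87 to 0.96 for shading against control. Its estimates were -0.40 and -0.55 without control replicate 3. Its neighbours in the chromosome 9 run had 851 to 38174 counts per library.

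Solyc03g042560.2 was a case of 1 library. It had 2, 37 and 5 counts in the defoliation libraries, 12, 11 and 0 in the shading libraries and 6, 0 and 608 in the control libraries. The fitted log2 fold changes of -3.89 ± 1.91 for defoliation and -4.47 ± 2.05 for shading (SE; edgeR adjusted p = 0.151 and 0.137) rested on control replicate 3, without which they were 2.04 and 1.45 and equally uncalled. DESeq2 set its p-values to missing, as it does for genes with an extreme count. The 2 identifiers listed before it, Solyc03g036473.1 and Solyc03g036480.2, had the same shape. They held 60 and 167 counts in control replicate 3 and at most 1 and 10 in any other library. Their numbers lie well apart from its own, so a place beside it on the chromosome is not shown. No product is given for either, and both were below the filter on low counts.

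Setting shading against defoliation directly asks whether the members differ between the 2 treatments. No member was called, and 0 members had an unadjusted edgeR p below 0.05, against 16.6% of all genes. DESeq2 and limma-voom also called 0 members. Over all genes edgeR and limma-voom each called 3, or 0.0146%, so an absence of calls says little about the family. DESeq2 called 996 genes, or 4.88% of those with an adjusted p, a share at which 0 of 7 members also says little. All 7 estimates were below 0, with a median of -0.30 against -0.03 over all genes, where 54.1% were below 0. The members' median was -0.13 without shading replicate 1, with 5 of 7 below 0, and -0.58 without shading replicate 3.

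The widest gap between the treatments was again that of Solyc09g007900.3 among members with many reads. Its shading libraries, at 48.8 to 54.9 CPM, lay below its defoliation libraries, at 60.8 to 177 CPM, without overlap. It was the single member of 7 whose groups were apart in this way, and 11.4% of all genes had shading wholly below defoliation. The log2 fold change was -1.002 ± 0.51 (SE; edgeR adjusted p = 0.364), with a 95% interval from -2.18 to 0.17. Without defoliation replicate 1, its highest defoliation library, it was -0.41 (edgeR adjusted p = 0.712).

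For Solyc09g007920.3 the direct log2 fold change was -0.37 ± 0.22 (SE; edgeR adjusted p = 0.429), with a 95% interval from -0.86 to 0.13. The estimate of Solyc05g056170.3 was nearest to 0 at -0.05 ± 0.32 (SE), and its interval from -0.76 to 0.66 leaves room for a difference in either direction.

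**Figure D4:**
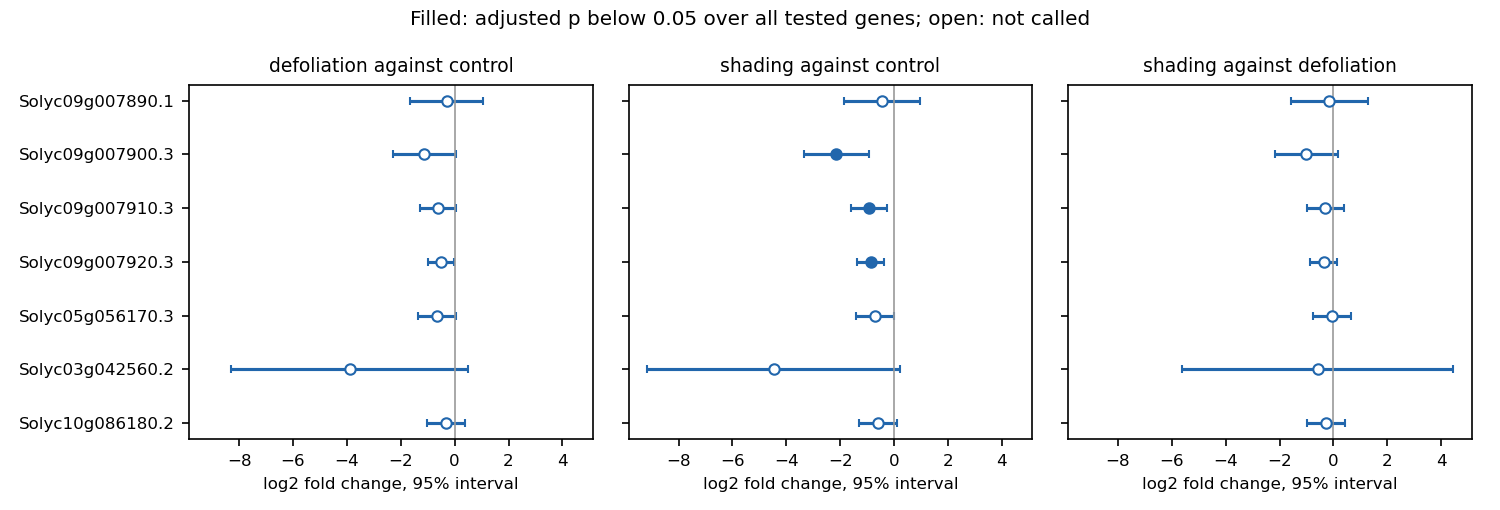
Log2 fold change with its 95% interval (horizontal axes) of the 7 PAL members (rows) in the 3 comparisons (panels), filled where the adjusted p was below 0.05 over all tested genes. The 3 filled points are Solyc09g007900.3, Solyc09g007910.3 and Solyc09g007920.3 for shading against control, and the intervals of Solyc03g042560.2 are the widest.

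With all libraries, the order of the group means was shared by all members. Each of the 7 had its highest mean in control leaves, the next after defoliation and the lowest under shading, an order found in 21.2% of all genes tested. Without control replicate 3 it held for 6 of 7 members (19.9% of all genes), and without shading replicate 3 for 7 (22.4%). Neighbouring groups in this order did not differ by the test in any member. The ends of the order differed in the 3 chromosome 9 members named above.

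Within groups the spread differed between members. The coefficient of variation of Solyc09g007900.3 was 58.8% after defoliation, 6.40% under shading and 69.4% in control leaves, while that of Solyc09g007920.3 was 11.4%, 24.2% and 27.6%. Single libraries carried much of this spread, since the value for Solyc09g007900.3 was 18.8% after defoliation without replicate 1 and 12.5% in control leaves without replicate 3. For Solyc09g007920.3 it was 3.93% under shading without replicate 3 and 14.9% in control leaves without replicate 3. Solyc09g007900.3 also took a varying share of PAL reads, 8.80% ± 3.595 after defoliation, 6.21% ± 1.28 under shading and 12.5% ± 4.32 in control leaves (SD, n = 3). Its share was 10.4%, 9.68% and 17.5% in control replicates 1, 2 and 3, and 12.9% in defoliation replicate 1. For Solyc09g007910.3 and Solyc09g007920.3, whose shares are given above, the group means lay closer together than the largest SD within a group.

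The 5 members with many reads varied together over the libraries. Across all 9 libraries the 10 pairwise Pearson correlations of log2 CPM lay between 0.754 and 0.95, and across the 8 libraries without control replicate 3 between 0.635 and 0.931. The highest value, 0.95, was that of Solyc05g056170.3 with Solyc10g086180.2, on different chromosomes, and the lowest that of Solyc09g007900.3 with Solyc05g056170.3. These points share their libraries, their scaling and the group differences, and similar copies may also share reads.

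Among tested genes outside the listed members, those most like Solyc09g007920.3 over the 9 libraries were Solyc01g091820.3, Solyc06g063260.3 and Solyc05g012220.3. Their Pearson correlations of log2 CPM were 0.967, 0.963 and 0.957. Those most like Solyc09g007910.3 were Solyc06g073130.3, Solyc06g074090.3 and Solyc01g088440.2, at 0.956, 0.939 and 0.933. They were picked for this likeness, so their group means follow those of the members by construction. Solyc06g074090.3, for example, averaged 46.8 CPM after defoliation, 34.8 CPM under shading and 74.1 CPM in control leaves. The files name no product for them.

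The genes beside the members in identifier order, pooled over all positions, had no common direction. Of 18 neighbouring identifiers, 13 were tested, and under shading 2 were called higher and 2 lower than in control leaves. Over all genes tested, 16% were called higher and 14.2% lower, shares similar to these. The median log2 fold change of the tested neighbours was 0.06 for shading and -0.11 for defoliation. Next to the chromosome 9 members, Solyc09g007870.3 stood at 78.3 CPM under shading and 99.9 CPM in control leaves (log2 fold change -0.35, edgeR adjusted p = 0.0784). Solyc09g007880.1, with 3 to 37 counts per library, was called lower under shading (-1.42, edgeR adjusted p = 0.0299). Solyc09g007860.3, on the same side, was not called (0.15, edgeR adjusted p = 0.811). On the far side of the run, Solyc09g007950.2 had a log2 fold change of 0.22 and was not called (edgeR adjusted p = 0.525). Solyc09g007980.1, with 8 to 58 counts per library, was at -0.88 and was not called either (edgeR adjusted p = 0.246).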

How the data were processed

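The authors deposited expected counts estimated with RSEM, as whole numbers. Per the submitters' processing notes, Trim Galore, STAR, RSEM and DESeq2 were used; no version, genome build or annotation is given in the sources used here. Reads that match several genes are divided between them by RSEM, so counts of similar copies, as in the chromosome 9 run, are uncertain. The TruSeq kit named in the labels does not mark strand, so overlapping antisense transcripts cannot be told apart.

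Genes were kept by filterByExpr (20480 of 23195, holding 99.96% of counts) and scaled by TMM. All 9 libraries entered 1 quasi-likelihood fit in edgeR 4.0.16 (R 4.3.3; robust, legacy fitting method) with a coefficient per group and 6 residual degrees of freedom. Benjamini-Hochberg adjustment ran over all tested genes, with calls below 0.05. The SE is the log2 fold change divided by the square root of F. The test sets the difference between groups against the spread between these samples. Whether each biological replicate was a separate plant is not stated. The pipeline was tested on simulated data without outlying libraries, so that test does not bear on results that depend on single libraries. Alternatives were DESeq2 1.42.0, limma-voom (limma 3.58.1), other scalings, filters, fits of the compared groups alone, a replicate block and leaving out each library.

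All 7 listed members are named. Similar genes were the 3 with the highest correlation to each of the 2 members with most reads. Neighbours, in identifier order, were the 3 on each side of the chromosome 9 run and the 2 on each side of every other member. The members and lists were chosen with earlier results of these data known. A list of other phenylpropanoid genes, and the cell type markers, were to be found by product name and could not be applied.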

Additional observations from a re-analysis of the deposited data

How the results depend on the processing

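The count of members called for shading against control was 3 with DESeq2, limma-voom, the newer quasi-likelihood method, RLE or upper-quartile scaling, either other filter and the replicate block, and 2 with only the compared groups in the fit. Leaving out each library gave 0 to 4. Over all genes, 11.6% to 16% were called lower under these alternatives, and 9.26% to 14% with each library left out. For defoliation against control the count was 0 under these alternatives, except 1 with only the compared groups in the fit, and 0 to 1 with each library left out. In these fits 29% to 38.1% of all genes were called, and 24.2% to 35% with each library left out. For shading against defoliation the member count was 0 under every alternative run, where 0% to 4.88% of genes with an adjusted p were called. Deviations from group means were at most weakly correlated between libraries with the same replicate number (-0.187 to 0.141), so the number was not taken to pair them. Shading replicates 1 and 2 still correlated best with the defoliation library of their own number (0.141 and 0.136). So did shading replicates 1 and 3 with control (0.0675 and 0.0423), but no defoliation library did so with control. The replicate block gave log2 fold changes of -2.06, -0.92 and -0.87 for Solyc09g007900.3, Solyc09g007910.3 and Solyc09g007920.3 under shading, and over all genes 6060, 5232 and 0 calls in the 3 comparisons. Over all genes, shading against defoliation had 3 calls by edgeR and 996 by DESeq2.

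Sign changes came only from leaving out a library, in members not called. For defoliation against control, Solyc09g007890.1 ranged from -0.49 to 0.048 (positive without control replicate 2) and Solyc03g042560.2 from -5.83 to 2.04. For shading against control, Solyc03g042560.2 ranged from -5.04 to 1.45. For shading against defoliation, Solyc05g056170.3 ranged from -0.48 to 0.21 (0.14, 0.21 and 0.04 without defoliation replicate 1, shading replicate 1 and shading replicate 2), Solyc09g007890.1 from -0.46 to 0.25 and Solyc03g042560.2 from -1.05 to 1.36. The cause was not tested. Solyc09g007890.1 and Solyc03g042560.2 failed some filters and gave no value there. Group means of the summed PAL reads moved by less than 1 SD under every scaling. With each library left out they also did, but a mean of 3 can hardly move further when 1 is dropped. That comparison therefore does not show that the sums are stable. The control mean of the sum over members was 1729 CPM with all libraries and 1391 CPM without control replicate 3.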

Other observations

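Beside Solyc10g086180.2 on chromosome 10, 3 of the 4 neighbouring identifiers were called higher after defoliation and 2 under shading. The PAL gene between them was not called in either comparison. No other neighbour among the 13 tested around the members was called higher against control. Over all genes tested, 18.9% were called higher after defoliation and 16% under shading. Values without control replicate 3 are not given for these neighbours. Solyc10g086150.2 averaged 761 CPM after defoliation, 639 CPM under shading and 110 CPM in control leaves, with log2 fold changes of 2.79 and 2.54 against control (edgeR adjusted p = 0.000523 and 0.000746). Solyc10g086190.2 averaged 90.0, 75.5 and 42.2 CPM in the same groups (log2 fold changes 1.09 and 0.84, edgeR adjusted p = 0.00142 and 0.00616). Solyc10g086210.2 rose after defoliation (1.48, edgeR adjusted p = 0.00117) and was not called under shading (0.38, edgeR adjusted p = 0.236). The direct comparison of shading with defoliation did not pass for it (-1.09, edgeR adjusted p = 0.106). The files name no product for these genes.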
